A study of Mus musculus with 16 samples.

Results

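Serum microRNAs (miRNAs) of adult male mice aged 58 weeks (58w) were compared with those of young adult males aged 8 weeks (8w), which spans adult ageing without the growth phase that lies between 4 and 8 weeks. The comparison rests on 8 of the 16 arrays of the series, the 4 titled with each of these ages, and on the 1881 mouse miRNAs that each array reads. Mice of 4 weeks (4w) and 36 weeks (36w) make up the other 8 arrays. The labels give no strain, genotype or treatment for any mouse, and blood was drawn from the heart and spun in serum separator tubes. The design text asks which serum miRNAs change with ageing and gives 4 mice an age, so 1 array was taken as 1 mouse.

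miRNAs are short RNAs that guide Argonaute proteins to messenger RNAs, mainly through pairing of their seed, bases 2 to 8 from the 5′ end. In blood they travel in vesicles, in lipoproteins and bound to protein, and much of the pool comes from red cells, platelets, leukocytes and endothelium, with smaller parts from solid organs. A serum level is therefore set by release and clearance as well as by expression in any tissue, and array signals cannot tell these apart.

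Of the 1881 miRNAs, 437 had a detection call on 1 or more of the 8 arrays and 94 on all 8. Detection is the scanner software's call that a miRNA's total signal exceeded its error. The number detected per array was 222, 219, 184 and 241 at 8w, and 281, 224, 167 and 204 at 58w. These ranges overlapped, and the means differed by 2.5 miRNAs (two-sided exact permutation test, p = 0.914, adjusted p = 0.914 over 5 measures with 1 value per array). Testing took in the 272 miRNAs with detection on 3 or more of the 4 arrays of either age. Levels are log2 of the background-subtracted signal after each array was scaled to an equal 75th percentile of those 94 miRNAs, with values below a floor of 0.09 set to it.

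Both ages held an array that stood apart, and this bears on all values that follow. The standard deviation (SD) of the negative-control spots, which carry no mouse sequence and show the background of an array, was 2.01, 1.82, 3.54 and 1.95 intensity units at 8w in the order of the replicates. At 58w it was 4.45, 3.98, 2.23 and 2.90. Replicate 3 was thus the noisiest array of 8w and the quietest of 58w. Over the 272 miRNAs tested, the first principal component took 83.3% of the variance and separated the arrays in the same way, with 8w replicate 3 at 16.03 among 58w replicates 1, 2 and 4 at 18.1 to 26.0, and with 58w replicate 3 at -17.7 among the other 8w arrays at -23.9 to -19.8. Replicates of the same number sat at the same position on their slides, all 8w arrays lay on 1 slide and all 58w arrays on the other. Slide and age thus cannot be told apart here. The split by background ran across both slides. A cut at an SD of 2.5, chosen after these values were seen, gives 4 arrays of higher background (8w replicate 3, 58w replicates 1, 2 and 4) and 4 of lower background.

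The miRNAs that followed this split were many and differed in sequence. A set of 79 was seen on 3 or more of the 4 higher-background arrays and on none of the others, and 64 of the 79 are 3p arms, the strand from the 3′ side of the hairpin. Their median scaled signal was 17.8, 33.1, 33.7 and 18.7 on the higher-background arrays (8w replicate 3, then 58w replicates 1, 2 and 4) and between 0.346 and 1.4 on the lower-background ones. A set of 60 showed the opposite detection, at a median of 6.52, 7.5, 10.1 and 4.78 on the lower-background arrays (8w replicates 1, 2 and 4, then 58w replicate 3). C and U made up a median of 76.2% of the bases in the first set (69 with a sequence), 32.0% in the second (47) and 45.6% in the 94 detected everywhere (82). The lower-background set was instead rich in G, at a median of 40.9%. The arrays of the other ages followed this split in part. Of the 79, 4w replicates 1 to 4 detected 79, 1, 45 and 76, and 36w replicates 1 to 4 detected 14, 70, 79 and 79. Of the 60, they detected 2, 59, 56 and 5 at 4w and 16, 18, 16 and 0 at 36w. The arrays that broke it were 4w replicate 3 (SD 2.59), which detected most of both sets, and 36w replicate 1 (SD 2.76), which detected few of either.

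Sequences are those of the RefSeq table for build GRCm38.p6, which held 232 of the 272 tested miRNAs, and are written 5′ to 3′ with the seed in capitals. The brightest miRNAs of the higher-background set show its run of C and U:
miR-7084-3p: gCCUCUGAccccuguccucugc
miR-1894-5p: cUCUCCCCuaccaccugccucu
miR-487b-5p: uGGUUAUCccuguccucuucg
Among the brightest of the lower-background set, which also holds miR-214-3p and miR-7020-5p shown further down, are these:
miR-1892: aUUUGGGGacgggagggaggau
miR-3102-5p.2-5p: gGUGGUGCaggcaggagagcc
miR-378d: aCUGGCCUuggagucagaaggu
The miRNAs with the smallest p among those higher at 58w begin with well-known regulators of senescence, inflammation and blood cells:
miR-34a-5p: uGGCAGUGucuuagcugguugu
miR-21a-5p: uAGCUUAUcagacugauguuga
miR-142a-3p: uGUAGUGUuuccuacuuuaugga
miR-29b-3p: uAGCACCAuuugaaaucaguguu
miR-146a-5p: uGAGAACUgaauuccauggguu
miR-221-3p: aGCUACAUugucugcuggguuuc
Those lower at 58w hold purine-rich sequences, with miR-214-3p and miR-140-3p as the members best known from tissue:
miR-7020-5p: uGGGAUGGuggagagggugaccag
miR-214-3p: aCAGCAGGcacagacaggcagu
miR-671-5p: aGGAAGCCcuggaggggcuggag
miR-6995-5p: cUGGGAGUagaagggggaaacca
miR-140-3p: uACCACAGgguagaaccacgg
miR-3473e: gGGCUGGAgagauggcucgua
miR-34a-5p is encoded at chr4:150068473-150068494 on the plus strand, miR-214-3p at chr1:162223438-162223459 on the plus strand and miR-7020-5p at chr4:139644047-139644070 on the plus strand.

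**Figure D1:**
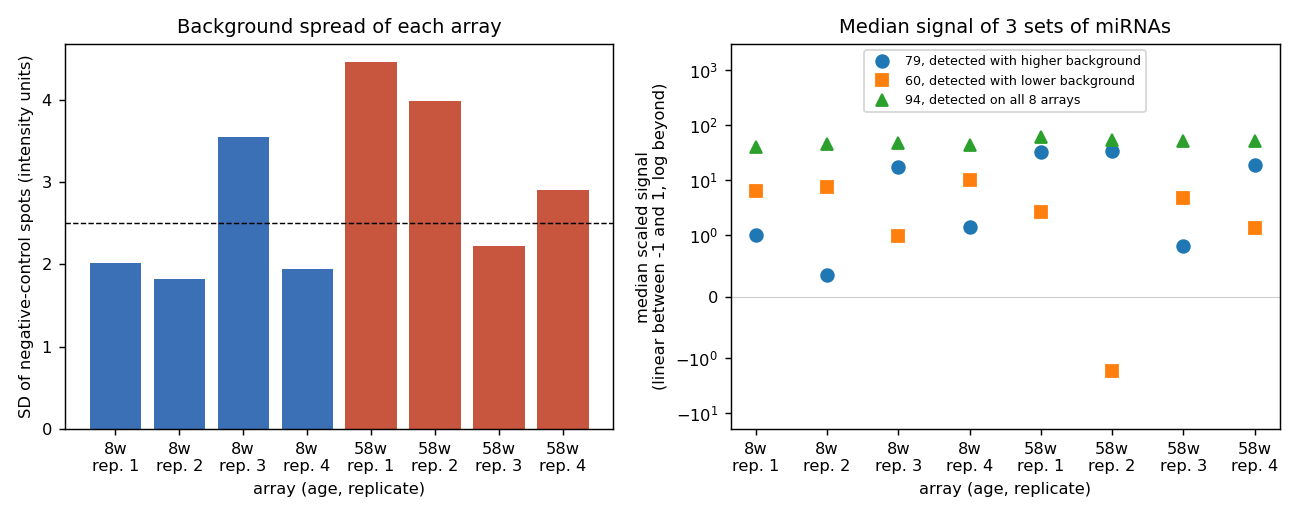
Left, the SD of negative-control spots on each array (intensity units), with a dashed line at 2.5. Right, the median scaled signal on each array (linear between -1 and 1, logarithmic beyond) of the 79 miRNAs detected with higher background, the 60 detected with lower background and the 94 detected on all 8 arrays. The 79 sit at 17.8 to 33.7 on 8w replicate 3 and 58w replicates 1, 2 and 4 and at or below 1.4 on the rest.

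None of the 272 miRNAs passed an adjusted p of 0.05 in limma's test with Benjamini-Hochberg adjustment (0% called), and the smallest adjusted p was 0.0988, for miR-7020-5p and miR-214-3p. At an unadjusted p under 0.05 there were 47 (17.3%), of which 15 were higher at 58w (5.51%) and 32 lower (11.8%). The 4 arrays of each age did not overlap for 12 miRNAs that were higher at 58w (4.41%) and 17 that were lower (6.25%). The fitted difference was above 0 for 172 (63.2%) and below 0 for 100 (36.8%), with a median of 0.45 on the log2 scale. Scaling moved this split: 53.3% lay above 0 with no scaling (median 0.08), 51.1% with quantile normalization (0.02) and 51.8% with scaling to labelling spike-in RNA (0.02), so that differences are best read relative to this median. The share of higher among those with an unadjusted p under 0.05 was 31.9%, against 9.3% with no scaling, 8.16% with scaling to the median and 54.4% with scaling to the 24 miRNAs detected on all 16 arrays. Other choices turned the balance of 15 higher to 32 lower round, to 36 and 4 with normexp background correction (90%), 40 and 16 with the brightest probe of each miRNA (71.4%), 48 and 33 with the deposited total signal (59.3%) and 22 and 3 with base composition regressed out (88%).

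The count of miRNAs past the threshold turned on replicate 3 of each age. It was 109 without 58w replicate 3 (93 higher, 16 lower), 20 without 8w replicate 3 (1 higher, 19 lower), 138 without both (112 higher, 26 lower) and 177 with arrays weighted by their fit to the group (125 higher, 52 lower). Leaving out any of the other 6 arrays gave 0. Without replicate 3 of both ages all arrays of 58w have the higher background and all arrays of 8w the lower, so that background and age cannot be told apart there. With the log2 SD of the negative-control spots as a covariate, a fit chosen after the data were seen, 0 passed, 23 had an unadjusted p under 0.05 and the median difference was -0.05.

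The difference between ages ran with base composition across miRNAs. Over the 232 tested miRNAs with a sequence, the log2 difference and the percentage of C or U had a Pearson correlation of 0.843 and a Spearman correlation of 0.847. All points share the same 8 arrays, miRNAs are not independent replicates, and the values are a description with no test. Of the 62 miRNAs with at least 70% C or U all 62 were higher at 58w, with a median of 2.38. Of the 38 with under 30% only 1 was higher, with a median of -1.71. The rule for testing bears on these counts. The higher-background set held 52 miRNAs with at least 70%, and its tested members entered only through detection at 58w. Those of the lower-background set entered only through 8w. Among the 94 detected on all 8 arrays, 6 had at least 70%. The correlation was 0.648 over the 82 with a sequence among the 94 detected on all 8 arrays. On single arrays, the deviation from a miRNA's mean correlated with C or U at 0.624 for 8w replicate 3 and 0.815 to 0.85 for 58w replicates 1, 2 and 4, and at -0.615 for 58w replicate 3 and -0.839 to -0.787 for the other 8w arrays. Composition thus followed the background of an array on both slides, and the part of either in the difference between ages was not tested.

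**Figure D2:**
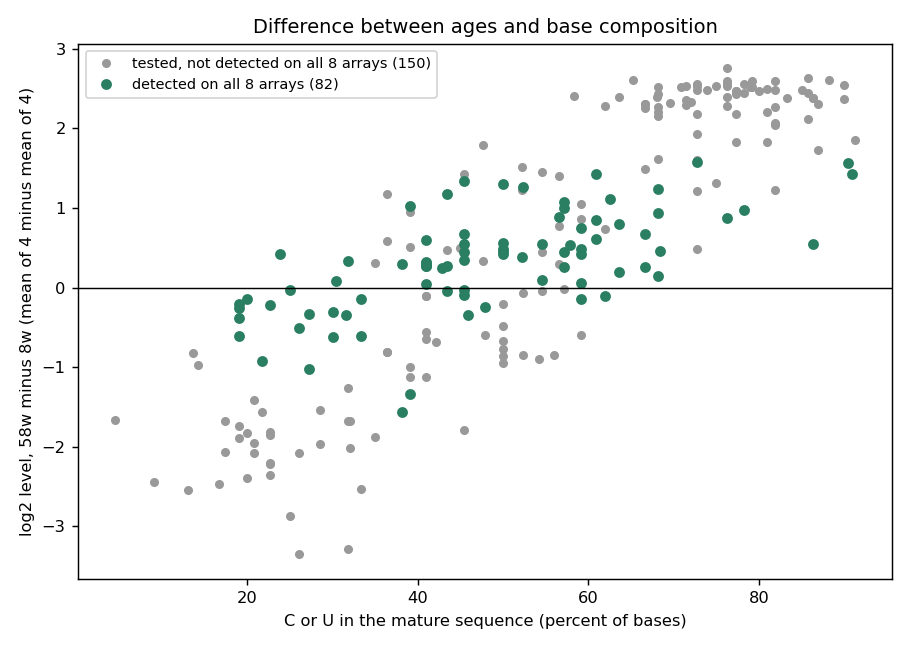
Each point is 1 of the 232 tested miRNAs with a sequence. The x axis is the percentage of C or U in the mature sequence, the y axis the mean log2 level of 4 arrays at 58w minus that of 4 at 8w. Green points were detected on all 8 arrays. The points climb from a median of -1.71 under 30% to 2.38 at 70% or more.

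Because each age has arrays on both sides, the ages can be compared within arrays of like background: 58w replicates 1, 2 and 4 against 8w replicate 3, and 58w replicate 3 against 8w replicates 1, 2 and 4. Each has 1 array on a side and so no replicate check. Over the 272 tested, the median difference was 0.40 within higher background and -0.08 within lower background. The signs were both positive for 76, both negative for 60 and opposite for 89, and 1 of the differences was 0 for 47 at the floor. Composition was less marked in these comparisons, with correlations of 0.361 and 0.454 over the same 232 miRNAs. All 12 of the higher miRNAs with the smallest p were above 0 in both, at medians of 0.88 and 1.25. Of the 12 lower ones, 10 were below 0 in both and 2 were at the floor on all higher-background arrays. These 24 were picked on the same arrays, so the shared sign is a description.

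**Figure D3:**
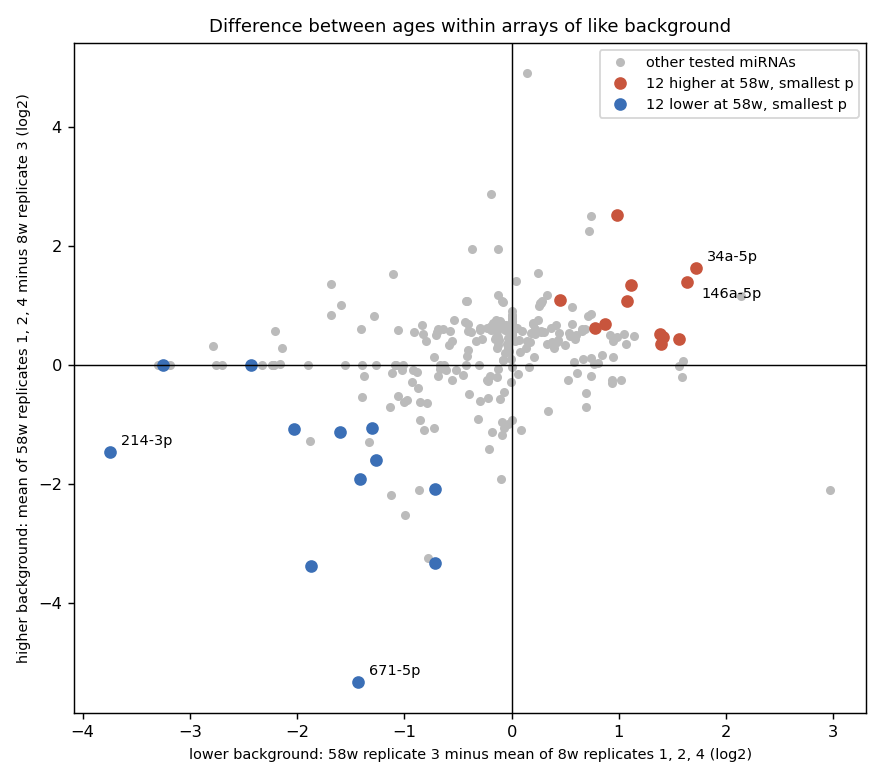
Each point is 1 of 272 tested miRNAs. The x axis is 58w replicate 3 minus the mean of 8w replicates 1, 2 and 4 (lower background), the y axis the mean of 58w replicates 1, 2 and 4 minus 8w replicate 3 (higher background), both log2. The 12 higher miRNAs (red) lie at the upper right, the 12 lower (blue) at the lower left or on the horizontal line, and 89 others lie in the opposite corners.

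miR-34a-5p, a target of p53 that restrains the cell cycle and accumulates in ageing tissue, had the smallest p of the miRNAs higher at 58w. Its log2 level was 2.84, 3.07, 2.51 and 2.81 at 8w and 4.15, 4.04, 4.62 and 4.24 at 58w. Every 58w array was above every 8w array, and the 2 replicate 3 arrays did not exchange places: the 8w one was the lowest of all and the 58w one the highest. The difference was 1.46 ± 0.32 (SE, n = 4 and 4; limma adjusted p = 0.124). It was 1.63 within higher background, 1.72 within lower background and 1.37 with base composition regressed out of each array, an alternative chosen after the data were seen. Detection was on 3 of 4 arrays at each age. No other member of its family was tested, and of 6 on the array 1 was detected.

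Among the 12 of smallest p, several miRNAs of blood cells and of inflammation were higher at 58w on all or nearly all arrays. Of the leukocyte miRNAs tested, 1 of 6 was below 0, miR-181a-5p at -0.60. Of those of ageing and inflammation, 2 of 11 were, miR-497a-5p at -0.95 and miR-125b-5p at -0.14. miR-21a-5p, abundant in many cells and induced in inflammation and fibrosis, was at 7.35, 8.22, 8.06 and 7.29 at 8w and at 9.17, 9.02, 8.70 and 9.23 at 58w. The ages did not overlap, and the difference of 1.30 ± 0.37 (SE, n = 4 and 4; limma adjusted p = 0.204) was 1.08 within both backgrounds. miR-142a-3p, which is made almost only by blood cells, was at 4.44, 5.57, 4.93 and 3.95 at 8w and at 6.32, 6.22, 5.76 and 6.29 at 58w. Its highest 8w array lay just under its lowest 58w array (difference 1.43, SE 0.43). miR-146a-5p, a brake on NF-κB signalling, was at 3.52, 3.83, 3.41 and 3.61 at 8w and 5.10, 3.79, 5.29 and 5.52 at 58w. Here 58w replicate 2 fell among the 8w arrays while the other three lay above them (difference 1.33, SE 0.44). miR-342-3p, an miRNA of lymphoid cells, was at 6.45, 6.15, 6.55 and 5.62 against 7.18, 7.001, 6.85 and 7.30, with no overlap and a difference of 0.89.

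The others of the 12 come from several sources, and none passed the adjusted threshold. miR-221-3p, known from endothelium and vascular smooth muscle, had the tightest groups of the set, at 3.63, 3.76, 3.98 and 3.87 at 8w and 4.81, 4.56, 4.62 and 4.64 at 58w. The ages did not overlap, with a difference of 0.85 ± 0.30 (SE, n = 4 and 4; limma adjusted p = 0.230), which was 0.38 with base composition regressed out and 0.017 with quantile normalization. The difference of miR-222-3p, which has the same seed, was 0.78. miR-29b-3p, a repressor of collagen genes, was at 2.10, 2.84, 1.53 and 3.32 at 8w and 4.44, 3.54, 3.74 and 4.13 at 58w. These did not overlap either, but the gap between the nearest arrays was small beside the spread at 8w. miR-205-5p, of stratified epithelia, was at 3.70, 3.19, 4.16 and 2.39 against 4.49, 4.48, 4.51 and 4.89. miR-192-5p, of liver and gut, was at 4.28, 4.84, 5.15 and 3.01 against 5.48, 5.67, 5.60 and 5.56, so that the 58w arrays were alike and the 8w arrays were spread below them. miR-19b-3p, miR-125a-5p and miR-10a-5p made up the rest of the 12, with differences of 1.17, 1.11 and 1.40, the first and last with overlap. With base composition regressed out all 12 kept their direction, from 0.33 for miR-205-5p to 1.80 for miR-146a-5p, with 0.55 for miR-125a-5p, 0.69 for miR-342-3p, 0.96 for miR-142a-3p and 1.49 for miR-21a-5p. That fit left 75% of its 232 miRNAs above 0, with a median of 0.56. miR-205-5p, miR-221-3p and miR-125a-5p lay below this median. With quantile normalization they ran from 0.017 to 1.27, with 0.32 for miR-34a-5p and 0.15 for miR-29b-3p.

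**Figure D4:**
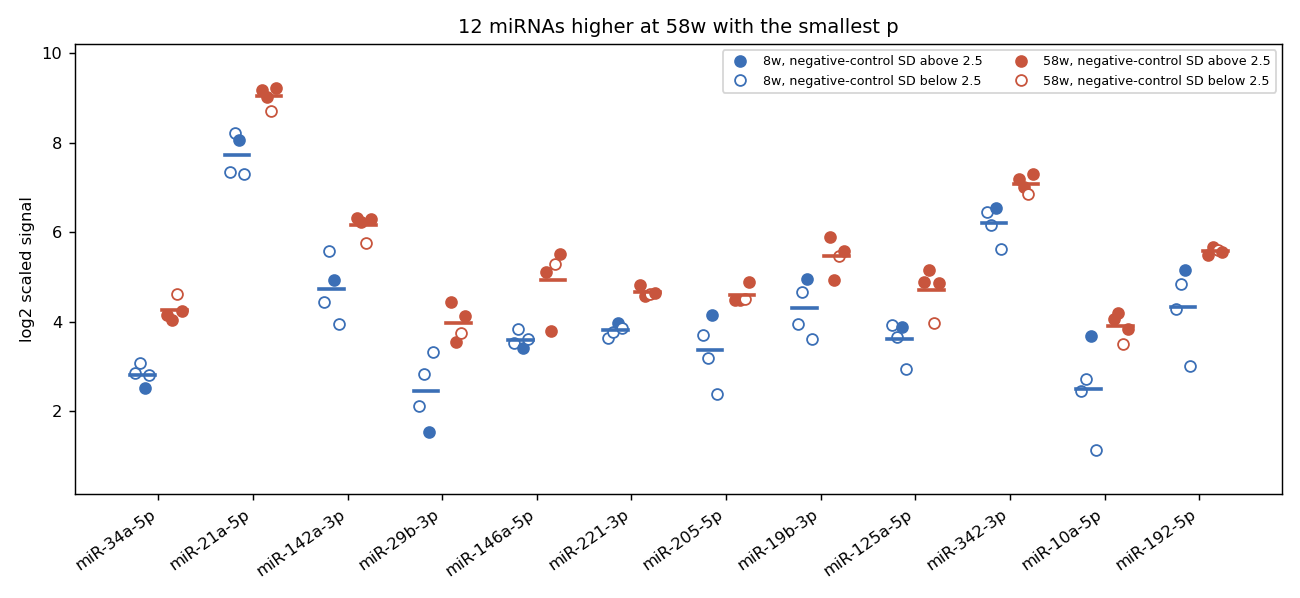
The log2 scaled signal of the 12 miRNAs higher at 58w with the smallest p, 1 point per array (blue 8w, red 58w; filled, negative-control SD above 2.5; open, below) and a line at each mean of 4. None of the 12 passed the adjusted threshold; the ages do not overlap for 9 of them.

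Of these 12 higher miRNAs, 9 were detected on all 8 arrays, and C and U made up a median of 55.5% of their bases. Of the 12 lower ones, 1 was detected on all 8, and in the 9 with a sequence the median was 26.1% C or U, with G at 28.6% to 59.1%. The lower set holds many faint miRNAs. Its members miR-7020-5p, miR-214-3p, miR-3102-5p.2-5p, miR-1894-3p and miR-711 also belong to the 60 miRNAs detected with lower background only. The limit of detection differed between arrays. The dimmest detected miRNA had a scaled signal of 9.81, 9.03 and 9.81 on 58w replicates 1, 2 and 4, and at or below 1.09 on every other array. The mean 8w level of 7 of the 12 lay above all of these limits and that of the other 5 did not. Folds against an age without detection are given as bounds.

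The exception in brightness was miR-140-3p, from the cartilage miRNA gene within Wwp2, which was detected on all 8 arrays. It was at 6.33, 5.94, 5.48 and 6.88 at 8w and at 4.82, 4.10, 5.08 and 4.36 at 58w, so that all 58w arrays were below all 8w arrays. The difference was -1.57 ± 0.43 (SE, n = 4 and 4; limma adjusted p = 0.204), and it was -1.05 within higher and -1.31 within lower background and -0.65 with base composition regressed out. miR-140-5p of the same hairpin had a difference of 0.13, and the 2 arms were not tested against each other. miR-709, among the 10 brightest miRNAs, was also lower without overlap, at 9.47, 9.44, 9.90 and 9.87 against 9.001, 9.10, 8.78 and 8.34, with a difference of -0.86 ± 0.34 (SE, n = 4 and 4; limma adjusted p = 0.230).

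miR-214-3p, a miRNA of mesenchymal and muscle cells transcribed antisense within Dnm3, was at 4.38, 3.60, 1.56 and 4.20 at 8w and at 0.09, 0.09, 0.32 and 0.09 at 58w. All 58w arrays were at or near the floor and none detected it, and 8w replicate 3, of the higher background, was the lowest 8w array and the only one without detection. With the reference signals averaged over the 58w arrays, it was at least 1.89-fold lower at 58w with the signals as reported. The limma adjusted p = 0.0988 is that of the fitted difference with floored values, not of the bound. Most of the bound came from 58w replicate 3, where the miRNA's own undetected signal of 0.32 was the reference. That bound did not hold under every processing, since the log2 difference was -0.74 with the brightest probe and -0.052 with normexp background correction. miR-199a-3p, of which 1 gene copy lies in the same transcript, had a difference of -0.86, and miR-199b-5p one of -0.29. All 3 tested members of this list were below 0, against 36.8% of all tested, and none was detected on all 8 arrays. An unadjusted limma p under 0.05 was found for 1 of them, miR-214-3p, against 11.8% of all tested that were lower at this p. With base composition regressed out the difference of miR-214-3p was -1.99 (limma adjusted p = 0.280).

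miR-7020-5p, an annotated mouse miRNA of unestablished function, was at 2.31, 3.18, 3.47 and 4.15 at 8w and at 0.09, 0.09, 1.34 and 0.09 at 58w, where no array detected it. With the reference signals averaged over the 58w arrays it was at least 1.41-fold lower with the signals as reported (limma adjusted p = 0.0988 for the fitted difference, not the bound). Its mean 8w level lay below the dimmest detected signals of 58w replicates 1 and 4. The bound thus rests almost wholly on 58w replicate 3, where the miRNA's own undetected signal of 1.34 was the reference. The log2 difference was -0.34 with the brightest probe and -0.0083 with normexp background correction. miR-671-5p was at 3.11, 3.11, 5.61 and 4.62 against 0.65, 0.09, 2.18 and 0.09, with detection on 4 and 1 arrays. In both, the 58w array that came closest to the 8w level was replicate 3. The same held for miR-5112, miR-6995-5p, miR-712-5p, miR-3473e and miR-5107-5p, whose 58w replicate 3 lay 1.02 to 2.33 above the mean of the other three 58w arrays. Each of these 5 was detected on 1 of the 4 arrays at 58w, and miR-712-5p, miR-3473e and miR-5107-5p lay at the floor on 2 or 3 of them, so that their fitted differences depend on the floor and are not given as sizes. miR-5112 and miR-6995-5p had no array at the floor and differences of -2.17 and -1.57, and the second turned to 0.33 with base composition regressed out. Probes of 1 miRNA did not all carry its signal. miR-712-5p had 2 of its 4 probes at the floor at both ages and differences of -0.47 and -0.69 in the others. miR-711 averaged to the floor on all 58w arrays and on 8w replicate 3, while 1 of its 4 probes stood at 4.50 at 8w and 4.06 at 58w. The direction of miR-3102-5p.2-5p and miR-1894-3p was not stable: their differences were 0.076 and 0.028 with normexp, and -0.045 and 0.23 with base composition regressed out. With normexp, whose added offset compresses faint signals, 8 of the 12 lower miRNAs were below 0, from -0.52 up, and 4 above. With the brightest probe all 12 were below 0, from -1.33 to -0.052.

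**Figure D5:**
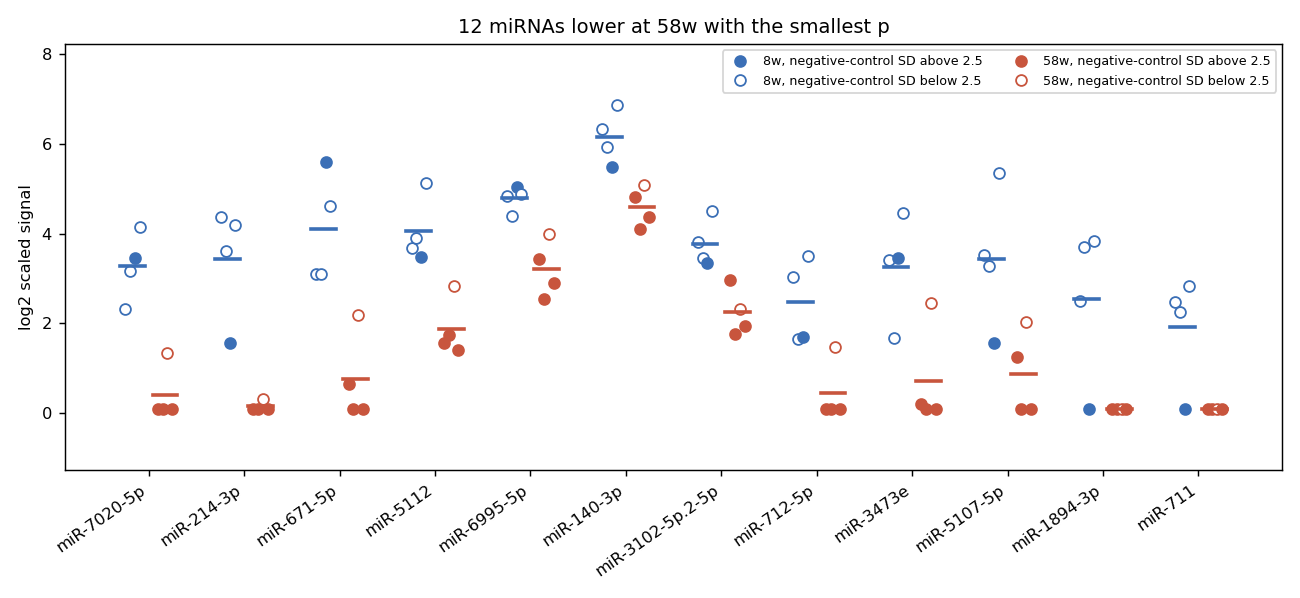
The log2 scaled signal of the 12 miRNAs lower at 58w with the smallest p, 1 point per array (blue 8w, red 58w; filled, negative-control SD above 2.5; open, below) and a line at each mean of 4. Points at 0.09 are at the floor; the ages do not overlap for 8 of the 12, and miR-140-3p alone was detected on all 8 arrays.

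Detection on all 4 arrays of 1 age and none of the other occurred for 2 miRNAs, both seen at 8w, miR-3067-3p and miR-5622-3p. miR-3067-3p was at 4.53, 4.06, 4.80 and 3.96 at 8w and 3.96, 3.57, 2.30 and 3.02 at 58w, a bound of at least 2.08-fold (limma adjusted p = 0.230 for the fitted difference). Its nearest arrays of the 2 ages were almost level, and on 58w replicates 1, 2 and 3 the bound uses its own undetected signal. miR-5622-3p was at least 1.24-fold lower, with overlap. Its mean 8w level lay below the dimmest detected signals of 58w replicates 1 and 4. This bound thus rests almost wholly on 58w replicate 3, where the miRNA's own undetected signal was the reference. No miRNA was detected on all 4 arrays at 58w and none at 8w. Of the 53 miRNAs detected on 1 array at 8w and 3 at 58w, all 53 were detected on 8w replicate 3 and missed on 58w replicate 3.

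Of the 10 brightest miRNAs of serum, 2 had no overlap between ages, miR-709 and miR-92a-3p, against 29 of the 272 tested. The arrays of the other 8 overlapped. miR-451a, the red-cell miRNA that is processed without Dicer, was at 10.56, 11.45, 11.80 and 11.73 at 8w and 11.55, 11.23, 11.93 and 11.22 at 58w. The ages overlapped over most of their range, and the difference of 0.10 ± 0.40 (SE, n = 4 and 4) turned to -0.27 with no scaling and to -0.20 with quantile normalization. The log2 ratio of miR-451a to miR-23a-3p, which is used to gauge red-cell lysis and does not depend on scaling, was 2.14, 2.95, 2.82 and 3.65 at 8w and 2.59, 2.71, 3.08 and 2.54 at 58w (two-sided exact permutation test, p = 0.657). miR-92a-3p, of the miR-17 cluster and abundant in red cells, was at 8.49, 8.50, 8.67 and 7.81 against 9.04, 9.09, 8.86 and 9.19 without overlap (difference 0.68, limma adjusted p = 0.230), and with base composition regressed out it stood at -0.14. The 10 brightest miRNAs held 55.6%, 57.5%, 53.2% and 69.4% of the summed signal at 8w and 45.1%, 46.1%, 64.8% and 56.1% at 58w (two-sided exact permutation test, adjusted p = 0.619). By the same exact test the log2 SD of negative-control spots was 0.54 higher at 58w (p = 0.171). For the log2 75th percentile signal before scaling, the difference of 58w minus 8w was -0.37 (exact p = 0.114), where the smallest p that 4 against 4 arrays allow is 0.0286.

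Families and source tissues are read here against the background of 63.2% of tested miRNAs above 0 and a median of 0.45, and no list was tested as a set. Of all tested, 5.51% were higher at an unadjusted limma p under 0.05 and 4.41% were higher without overlap. Of the let-7 family, whose members share the seed GAGGUAG and mark differentiated cells, all 7 tested were above 0 (0.27 to 1.17, median 0.55), with 1 without overlap and none at an unadjusted p under 0.05. let-7d-5p had the smallest p of them, at 3.62, 4.54, 1.86 and 2.69 against 3.74, 4.86, 4.36 and 4.44. Its ages overlapped, and the SD at 8w, 1.16, was about as large as the difference of 1.17. Of the miR-17 cluster and its paralogs, which promote proliferation of blood progenitors, all 8 tested were above 0 (median 0.81), 1 with an unadjusted p under 0.05. The largest difference of the 8, 1.60 (SE 1.09), was that of miR-18b-3p, a member of the higher-background set detected on 0 arrays at 8w and 3 at 58w. The 3 members of the miR-29 family were above 0 (median 0.49) and 4 of 5 of the miR-30 family (median 0.44), which is at the median of all tested. Other families were lower or mixed. Above 0 were 3 of 4 of the miR-15 and miR-16 family (median 0.36) and 3 of 5 of the miR-23, miR-24 and miR-27 clusters (0.26). So were 1 of 4 of the Sfmbt2 cluster (-0.14) and 0 of 2 of the miR-181 family (-0.75). In the Dlk1-Dio3 cluster 2 of 3 were above 0, both of them in the higher-background set.

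Leukocyte miRNAs were above 0 for 5 of 6 (median 0.93), with 3 at an unadjusted p under 0.05, against 5.51% of all tested. The list of ageing and inflammation miRNAs, from general knowledge but drawn up with earlier results of these data known, had 9 of 11 above 0 (median 0.49). An unadjusted p under 0.05 was found for 4 (36.4%, against 5.51% of all tested that were higher), which were miR-34a-5p, miR-21a-5p, miR-29b-3p and miR-146a-5p. The lists overlap: miR-21a-5p, miR-146a-5p and miR-223-3p are also on the leukocyte or the platelet and endothelial list. Epithelial, gut and pancreatic miRNAs had 4 of 4 tested above 0 (median 1.25), of 13 on the array. Platelet and endothelial miRNAs had 6 of 7 above 0 (median 0.35). Of the 2 liver miRNAs, miR-122-5p was at 0.06, below the median of all tested. The other, miR-192-5p, was at 1.26 and is also on the epithelial, gut and pancreatic list. Red-cell miRNAs were above 0 for 4 of 7, with a median of 0.10 (-0.06 with base composition regressed out, against 0.56 over all miRNAs of that fit), and striated muscle miRNAs for 3 of 3 (median 0.19). Of 8 brain miRNAs only miR-128-3p was tested, at 0.74. For comparison, the 94 miRNAs detected on all 8 arrays, to which most members of these lists belong, had 66 above 0, 11 of them with an unadjusted p under 0.05, and a median of 0.30.

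miRNAs with high registry numbers, many of them from introns and with little known function, were counted in 2 ranges. Of the 103 tested that are numbered 5000 or higher, 65 were above 0 (63.1%, against 63.2% of all), with a median of 1.83. Many of the 65 belong to the higher-background set, such as miR-7034-3p at 2.59 (SE 1.40), detected on 1 array at 8w and 3 at 58w. Of the 103, 15 lower (14.6%, against 11.8% of all) and 1 higher had an unadjusted p under 0.05. Of the 41 numbered from 1000 up to 5000, 18 were above 0 (43.9%, median -0.14), and 9 lower (22.0%) and 0 higher had an unadjusted p under 0.05. With base composition regressed out the medians were 0.71 and 0.49, against 0.56 over all miRNAs of that fit. Across all tested miRNAs the median SD within an age was 1.13 at 8w and 0.66 at 58w, but the SD was larger at 58w for 130 of the 272. Values at the floor lower the SD, which was 0 at 58w for miR-1894-3p. Over the 94 detected on all 8 the medians were 0.58 and 0.34, and the SD was larger at 58w for 27.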

How the data were processed

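Serum RNA of male mice, 1 Cy3-labelled sample per array, was read on Agilent mouse miRNA arrays. Per the file headers, the authors' spot intensity values are background-subtracted signals of Agilent Feature Extraction 11.5.1.1 (11.5 per the submitters' processing notes), deposited without scaling between arrays. The deposited outlier and detection flags and total signals were used as given. The number of arrays and their background limit the precision.

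From these, outlier spots were left out, spots averaged per probe and probes per miRNA. Arrays were scaled to an equal 75th percentile over 94 miRNAs, floored at 1.07 (0.09 as log2) and compared by lmFit and eBayes (limma 3.58.1, R 4.3.3), with Benjamini-Hochberg adjustment over the 272 tested; the script was tested on simulated data. A bound ("at least N-fold") sets the brighter age against the lowest signal of a detected miRNA on each array of the dimmer age. Values per array were compared by two-sided exact permutation tests over 70 assignments.

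Named miRNAs are the 12 of smallest p in each direction, those detected on 4 and 0 arrays and the 10 brightest. To these come 1 to 4 members of each list by smallest p, and the examples were cut to 1 per list after values had been seen. List ranges, shared seeds, miR-140-5p, miR-199, miR-222-3p and some other list members were added for context. The comparison, its miRNAs and the lists were chosen with earlier results of these data known. Same-numbered arrays of the ages deviated in opposite directions (correlations of -0.637, -0.68, -0.874 and -0.578), so numbers were not taken as pairs. Nothing but the count of 4 mice an age in the design text says that samples are separate animals. If they are not, p-values measure technical spread.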

Additional observations from a re-analysis of the deposited data

Results flagged for a closer look

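Within each age, the array with the highest or lowest value was set against the range of the 4 for the named miRNAs and the 5 array measures, 100 groups in all. Of these, 8 held an array whose gap to the nearest other was too large a share of the range by Dixon's test at 95%. Chance gives about 1 in 20, or 5, but that rate does not hold for groups with values set to the floor. The 8 include such groups and are not read as an excess over 5. The log2 SD of negative-control spots was 1.83 on 8w replicate 3, above the other 8w arrays. At 58w, replicate 3 stood apart for miR-142a-3p at 5.76, below the others, and for miR-7020-5p at 1.34, miR-214-3p at 0.32, miR-712-5p at 1.47 and miR-3473e at 2.47, each above others that were at or near the floor. Apart from miR-3473e, the miRNAs with replicate 3 above the others had 58w replicates 1, 2 and 4 all at the floor. Any replicate 3 value above the floor then fills the whole range, so the test cannot decide whether that array stands apart. For miR-3473e, replicates 2 and 4 were at the floor and replicate 1 was at 0.21, so its result leans on the floor too. miR-205-5p was at 4.89 on 58w replicate 4, above the other 58w arrays. miR-3963 was at 13.004 on 8w replicate 4, above the other 8w arrays.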

How the results depend on the processing

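Alternatives numbered 30 for the fit, and 24 of the 46 named miRNAs kept their direction in all that could give a value. The count past the adjusted threshold, 0 as reported, was 177 with array weights, 138 without replicate 3 of both ages, 2 with normexp background correction (miR-21a-5p, miR-709), 2 with the brightest probe (miR-29b-3p, miR-221-3p), 1 with the deposited total signal (miR-3067-3p), 1 with detection on 4 of 4 arrays (miR-671-5p) and 0 to 109 on leaving out 1 array. The count at an unadjusted p under 0.05, 47 as reported, was 16 with all 16 arrays, 81 with total signal, 23 over the 94 detected on all 8, 182 with array weights, 23 with the background covariate, 12 with that covariate over the 94, 156 without replicate 3 of both ages, 25 with base composition regressed out and 21 to 143 on leaving out 1 array. With the replicate number as a block, 0 passed and 20 had an unadjusted p under 0.05. On leaving out 1 array the median difference ran from -0.12 to 1.01, the difference in detected miRNAs from -18.2 (without 58w replicate 1) to 19.8, with -8.33 without 8w replicate 3, and that of miR-451a over miR-23a-3p from -0.41 to 0.091. Scaling to the 75th percentile of all mouse miRNAs was not run, because that percentile was not above 0 on 58w replicate 3.

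Directions turned as follows. With 16 arrays in the fit or in the scaling set, miR-5100 was at 0.078 and miR-486a-5p at 0.019. With scaling to the median, miR-451a was at -0.21, miR-23a-3p at -0.051 and miR-133a-3p at -0.081. With no scaling these were at -0.27, -0.11 and -0.14 and miR-6366 at -0.043, and with spike-in scaling at -0.33, -0.17, -0.20 and -0.10. With quantile normalization miR-451a was at -0.20, miR-486a-5p at 0.021, miR-133a-3p at -0.077, miR-128-3p at -0.33, miR-30b-5p at -0.29 and miR-107-3p at -0.66. With normexp, miR-3102-5p.2-5p was at 0.076, miR-712-5p at 0.11, miR-1894-3p at 0.028, miR-711 at 0.077, miR-3067-3p at 0.050, miR-5622-3p at 0.068, miR-451a at -0.025, miR-181b-5p at 0.16 and miR-466h-3p at 0.20. With array weights, miR-5100 was at 0.43, miR-3473b at 0.00745 and miR-466h-3p at 0.012. Without replicate 3 of both ages, miR-5100 was at 0.034 and miR-466h-3p at 0.056. With base composition regressed out, miR-6995-5p was at 0.33, miR-1894-3p at 0.23, miR-711 at 0.023, miR-3963 at -0.47, miR-3473b at 1.0998, miR-1224-5p at 1.69 and miR-92a-3p at -0.14. On leaving out 1 array, miR-451a ran from -0.17 to 0.22, miR-133a-3p from -0.19 to 0.71, miR-5100 from -0.41 to 0.21, miR-3473b from -0.60 to 0.12, miR-486a-5p from -0.27 to 0.050 and miR-466h-3p from -0.995 to 0.13. The cause of these turns was not tested.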
